A study of Mus musculus with 4 samples.

Results

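The DNA regions examined were listed by the authors as enriched for the histone mark H3K27ac in inflamed colon. They held few nucleosome tags of it in healthy colon and no HNF4A peak in either condition. They numbered 308 of the 1000 regions that the authors listed as most enriched in DSS. They were selected on measured values, the authors' acetylation score and the H3K27ac tags and HNF4A peaks of these libraries. A region was taken when it lay on an autosome, overlapped no HNF4A peak of the water or the DSS library by even 1 bp, and held fewer than 25 nucleosome tags in water. Of the 978 autosomal rows of the list, 343 were under this limit, and 35 of those were set aside because an HNF4A peak overlapped them. The other autosomal rows were 443 regions with 25 or more water tags and no HNF4A peak, and 227 regions that an HNF4A peak overlapped.

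Adult mice aged 2 to 4 months gave the tissue, a scraping of the colonic epithelium. One H3K27ac and one HNF4A library were made from animals on water only. One of each came from animals that had drunk 3% dextran sulfate sodium (DSS), which damages the lining of the colon, over 6 days. With 1 library in each of these 4 groups there is no replicate check, so no p-value is given and every 95% interval covers counting error only. The labels give no strain, sex or number of animals, and no defining gene of colonic epithelium was checked, since regions were not assigned to genes. Library totals for H3K27ac were 10329416 tags (DSS) and 10143920 tags (water). In bulk tissue, more or fewer cells of a type cannot be told apart from more or less acetylation per cell.

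On the Y chromosome, which is outside the set, 10 listed regions held 543 nucleosome tags in the DSS library and 4 in the water library. The labels give no sex, and the animals behind these libraries may have differed in it. In that case DSS treatment and sex cannot be told apart in any DSS-to-water ratio given here.

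H3K27ac is an acetyl group on lysine 27 of histone H3 and marks the nucleosomes beside active enhancers and promoters. At an active enhancer the marked nucleosomes flank a more open stretch, the linker, where transcription factors bind. HNF4A is a nuclear receptor of gut and liver epithelium that binds many enhancers of differentiated enterocytes.

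Tag counts on nucleosomes in these regions were modest in DSS and low in water. Nucleosome tags in DSS ran from 18 to 228 with a median of 51, and in water from 0 to 24 with a median of 11. The median log2 ratio of DSS to water was 2.30 (quartiles 1.84 and 2.88), which is 4.91-fold. It was also 2.30 with the regions that had no water tag set to the bound that 3 tags allow. That was fixed beforehand, since each such bound lies above this median. Both libraries were used to choose the regions, so these ratios describe the choice and test nothing. Regions with 25 or more water tags and no HNF4A peak had medians of 144 tags in DSS against 59 in water and a median ratio of 2.17-fold, and HNF4A-bound regions 155 and 70 tags and 2.08-fold. Per kb of region, a median of 100 tags in DSS and 28.9 in water fell on the 308 regions, counting nucleosome and linker tags together.

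**Figure D1:**
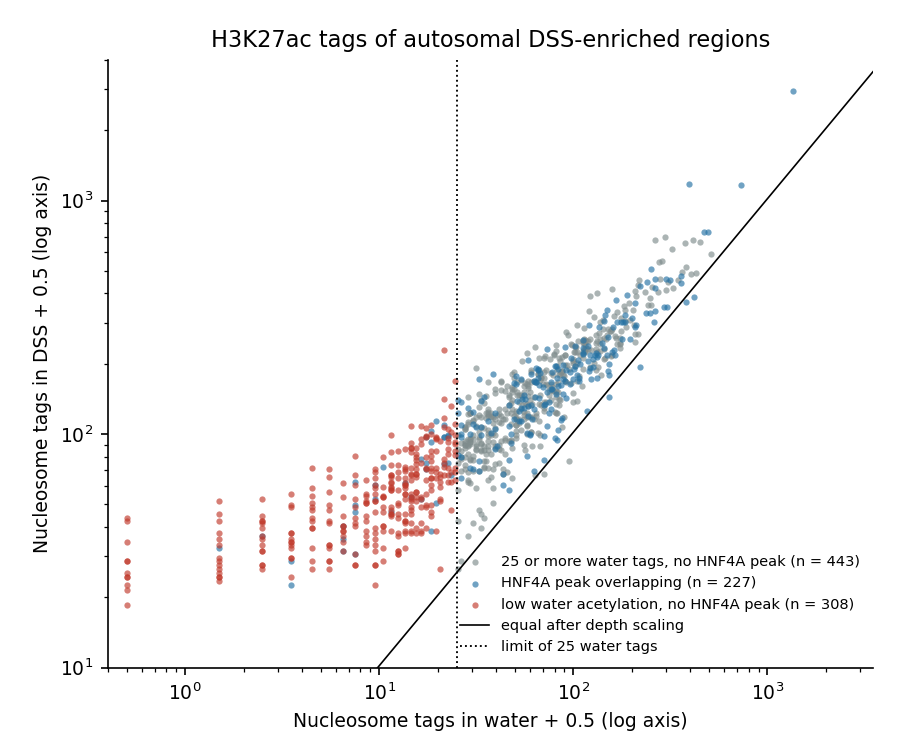
H3K27ac nucleosome tags in DSS (vertical, log axis) against water (horizontal, log axis), each plus 0.5, for the 978 autosomal regions of the DSS-enriched list. Each point is a region; the 308 regions of low water acetylation lie left of the dotted limit of 25 water tags and hold between 18 and 228 tags in DSS.

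Few of the regions were without tags in water. Were the water tags spread evenly over the span of the deposited lists, a region of the median width of 525 bp would hold 2.02 of them. The total of nucleosome and linker tags exceeded the even level in 293 of 308 regions (95.1%, Wilson interval 92.1 to 97) and exceeded it more than 5 times in 213 (69.2%, interval 63.8 to 74.1). Mappable sequence was not taken into account in that level. Only 11 regions (3.57%, interval 2.01 to 6.28) had no nucleosome tag in water, and 41 had 1 to 3. In DSS, 305 of 308 regions exceeded the even level more than 10 times. Neither an input library nor the local background was used, and linker tags are part of the total. These counts therefore do not show whether a region with water tags carried acetylated nucleosomes there. The regions are called regions of low water acetylation for their few water nucleosome tags, and they are not called new.

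Bands of water tags show how the counts behind the ratios are made up. Water tags are the ratio's own denominator and were used to choose the regions, so a lower ratio at more water tags is largely built in. The 65 regions with 0 to 4 water tags held a median of 34 tags in DSS and had a median ratio of 15.4-fold, or 11.9-fold with regions at 0 set to their bound. Those with 5 to 9 water tags (63 regions) had a median of 42 DSS tags and 5.82-fold, and those with 10 to 14 (83 regions) had 53 tags and 4.26-fold. In the bands of 15 to 19 tags (58 regions) and 20 to 24 tags (39 regions), the DSS medians were 67.5 and 78 tags and the ratios 3.74-fold and 3.39-fold. The band with the highest ratios also had the fewest DSS tags.

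The limit of 25 tags fell within a continuum. Of the regions just inside it, with 24 water tags each, one on chromosome 17 (37011541 to 37012151) held 168 tags in DSS. Another on chromosome 12 (25874251 to 25874726) held 99, and one on chromosome 5 (93464126 to 93464656) held 90. Just outside it, with 25 water tags each, one on chromosome 16 (24404866 to 24405416) had 26 tags in DSS, one on chromosome 13 (95607941 to 95608496) held 99, and one on chromosome 6 (133068936 to 133069511) held 57.

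Among single regions, the highest score belonged to one on chromosome 9 (35228761 to 35229401), ranked 3 in the whole list. It held 228 nucleosome tags in DSS against 21 in water, a ratio of 10.7 (interval 6.81 to 17.6), and no linker tag in either library. It shared 200 bp with a neighbouring row of the list (35228456 to 35228961) with 317 DSS tags and 128 water tags. The stretch of few water tags thus overlapped one with many more. The nearest HNF4A peaks were 102 kb away in water and 92.9 kb away in DSS.

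Second by score, a chromosome 13 region (95583656 to 95584141) had 71 tags in DSS against 4 in water, a ratio of 17.4 (6.52 to 65.7). A water HNF4A peak of low rank (16230 of 17886) lay 6.22 kb away, and the nearest DSS peak 429 kb away. The one after it, on chromosome 15 (77632586 to 77633096), held 56 and 5 tags, a ratio of 11 (4.44 to 35.2). It lay 2.97 kb from another region of the set (77636066 to 77636541).

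The fourth was the chromosome 17 region just inside the limit, with 168 tags in DSS against 24 in water and a ratio of 6.87 (4.47 to 11.03). A second region of the set lay 10 bp from it (37012161 to 37012611). The sixth, on chromosome 9 (53411451 to 53411941), held 131 and 23 tags, a ratio of 5.59 (3.57 to 9.13), and lay over 200 kb from any HNF4A peak of either list. Thus isolated and paired regions both stood among the highest scores.

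The seventh region, on chromosome 11 (61818926 to 61819466), carried 34 nucleosome tags in DSS against none in water. Set against the 3 tags that a count of 0 allows, with its DSS count taken as exact, it was at least 11.1-fold higher in DSS. The exact 95% interval, which counts the error of both, began lower, at 8.57. The eighth, on chromosome 6 (137643276 to 137643851), held 44 tags in DSS against 2 in water, a ratio of 21.6 with a wide interval of 5.64 to 184. The ninth, on chromosome 2 (166399876 to 166400341), held 65 and 11 tags, a ratio of 5.80 (3.04 to 12.2). The tenth, on chromosome 6 (82698206 to 82698661), held 106 and 17 tags, a ratio of 6.12 (3.65 to 10.9), with HNF4A peaks 503 bp away in water and 548 bp away in DSS.

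The fifth region by score was the one of the 10 with a total ratio below 1. This chromosome 14 region (12948691 to 12949211) had 30 nucleosome tags in DSS against 12 in water, a ratio of 2.46 (1.22 to 5.27). Its linker held 2 tags in DSS against 36 in water, so its total was lower in DSS, at 32 tags against 48 (ratio 0.655, interval 0.405 to 1.05). The deposited score subtracts linker signal, which here was higher in water.

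**Figure D2:**
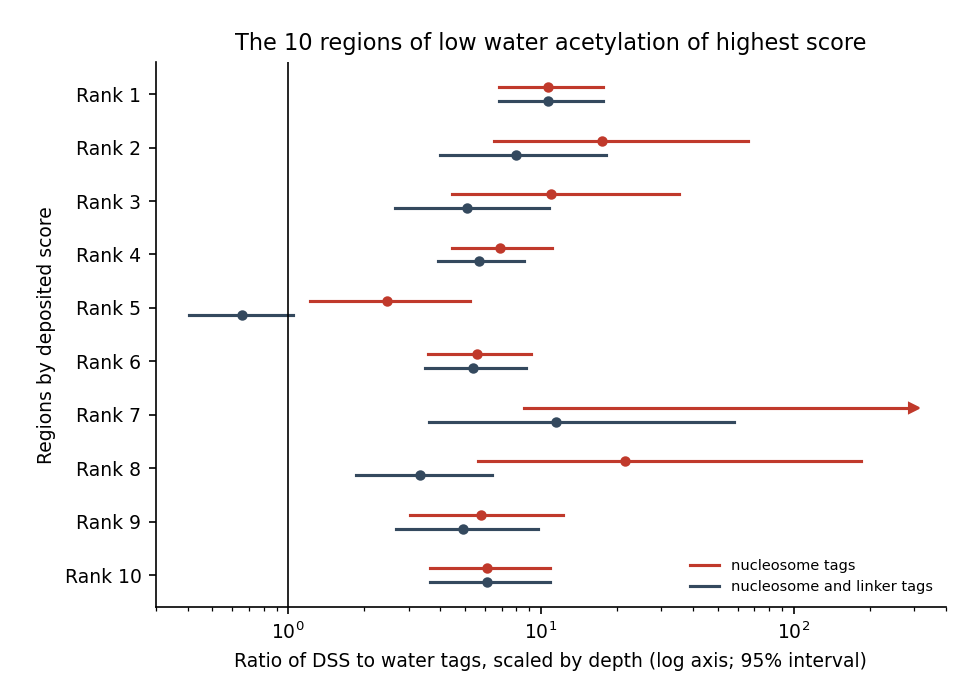
Ratio of DSS to water tags, scaled by library totals, on a log axis for the 10 regions of highest deposited score, with nucleosome tags in red and nucleosome plus linker tags in dark blue; points are ratios and lines 95% exact intervals. The arrow marks the rank 7 region with 0 nucleosome tags in water, and rank 5 is the one region whose total ratio, 0.655, falls below 1.

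The 11 regions with no nucleosome tag in water held few tags in DSS, 43 at most. Beside the chromosome 11 region, the 4 of highest score among them were on chromosome 15 (6361211 to 6361821, 28 tags in DSS), chromosome 7 (4456236 to 4456776, 21 tags) and chromosome 17 (66086411 to 66086871, 43 tags, and 24308621 to 24309196, 25 tags). Against 3 water tags, with the DSS counts taken as exact, they were at least 9.17-fold, 6.87-fold, 14.1-fold and 8.18-fold higher in DSS. Their exact 95% intervals began lower, at 6.97, 5.11, 11 and 6.18. The lowest DSS count among the 11 was 18 tags, on chromosome 8 (11249736 to 11250301), where the value against 3 water tags was 5.89-fold and the exact interval began at 4.32. The exact intervals of the other 10 began higher.

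Linker tags were fewer in DSS, while nucleosome tags were more numerous. Over the 300 regions left when only the highest-scoring of overlapping rows was kept, nucleosome tags summed to 16458 in DSS against 3332 in water, a ratio of 4.85. Linker tags summed to 1070 in DSS against 1762 in water, a ratio of 0.596 (0.552 to 0.644), and all tags to a ratio of 3.38. The linker interval lay on the water side in 25 regions and on the DSS side in 3, and it held 1 in 280. In those 3 regions, named here after their values were seen, linker tags were higher in DSS along with the nucleosome tags. These were on chromosome 8 (42886356 to 42886891), with 13 linker tags in DSS and 1 in water, chromosome 15 (93171346 to 93171896), with 10 and 2, and chromosome 16 (28844481 to 28845056), with 36 and 16. The authors' score subtracts linker from nucleosome signal, so linker loss helped a region onto the list and is no independent result. Nor was it particular to this set, whose median log2 linker ratio was -0.654, beside -0.656 in the whole list. The 25 regions with a water-sided linker interval were 8.12% of the set. That share was 23.7% in the 443 regions with more water tags and 26.9% in HNF4A-bound ones. The set had fewer linker tags, a median of 3 in water against 9 in each of those classes, which makes its intervals wider. The median log2 linker ratios of those classes were -0.631 and -0.763, beside -0.654 in the set. These shares thus do not show that linker loss was rarer in the set.

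With all tags counted, most regions were still higher in DSS. The interval of the nucleosome ratio lay on the DSS side in 307 of 308 regions (99.7%), beside 95.8% of the whole list. With linker tags included it did so in 282 of 308 (91.6%), beside 86.4% of the list, and in 25 the interval held 1. One region lay on the water side, 0.325% of the set beside 2.6% of the list. Since the list was made from these counts, the shares carry no further weight. The median log2 ratio of total tags was 1.94, or 3.85-fold, against 0.97 in regions with 25 or more water tags and 0.90 in HNF4A-bound ones.

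The linker held 5 or more tags in water in 123 regions, and in 48 the water linker held more tags than the water nucleosomes. In 57 regions the water total reached 25 tags or more, so that these were under the limit on nucleosome tags alone. The 3 regions with the most water-sided totals included the chromosome 14 region above. The most extreme, on chromosome 10 (69514206 to 69514836), held 26 nucleosome tags in DSS against 20 in water, and 12 linker tags against 56. Its total ratio was 0.491 (0.324 to 0.734), and its nucleosome ratio of 1.28 had an interval that held 1 (0.685 to 2.41). The remaining one, on chromosome 4 (133169811 to 133170446), held 47 and 11 nucleosome tags but 65 and 112 linker tags, for a total ratio of 0.894 (0.686 to 1.16). Regions on chromosome 14 (20804161 to 20804721) and chromosome 19 (32395101 to 32395681), named after their values were seen, also had total ratios below 1, at 0.926 and 0.961. In these 5 regions nucleosome tags were higher and linker tags lower in DSS, and the total was not higher.

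**Figure D3:**
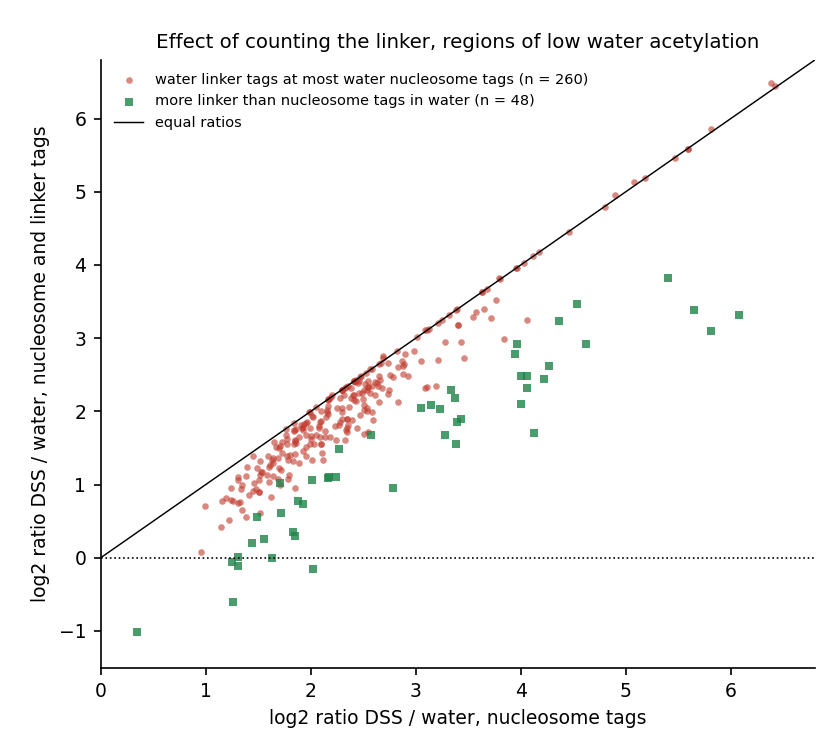
The log2 ratio of DSS to water for nucleosome plus linker tags (vertical) against that for nucleosome tags alone (horizontal), with a pseudocount of 0.5, for the 308 regions. The 48 regions with more linker than nucleosome tags in water (green squares) lie mostly farthest below the line of equal ratios, and the lowest, on chromosome 10, has a nucleosome ratio of 1.28 and a total ratio of 0.491.

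HNF4A was often nearby although it did not overlap. A water peak lay within 10 kb of 140 of the 308 regions (45.5%, interval 39.98 to 51) and a DSS peak within 10 kb of 100 (32.5%, interval 27.5 to 37.9). Within 2 kb the counts were 54 and 37 regions, and 158 regions had no peak of either list within 10 kb. The median distance to the nearest peak was 11.5 kb in water and 25.5 kb in DSS. The DSS list was the shorter one, with 10688 peaks against 17886, and with the water list held to that length by score the water share was 33.4%.

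The closest cases nearly touched a peak. A region on chromosome 1 (193618456 to 193618941) lay 3 bp from a DSS peak ranked 6957 of 10688 and 95 bp from a water peak, and held 70 tags in DSS against 9 in water. A region on chromosome 16 (27348371 to 27348971) lay 20 bp from a water peak ranked 16342 and 38.8 kb from any DSS peak, and held 52 and 2 tags. At the other extreme, a region on chromosome 5 (59494446 to 59495086) lay 3613 kb from the nearest peak of both lists, and held 47 and 14 tags. These 3 were named for their distances after the values were seen.

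Regions of low water acetylation were farther from HNF4A than other unbound DSS-enriched regions. Of the 443 with 25 or more water tags, 54.4% had a water peak and 42.7% a DSS peak within 10 kb. The differences were -8.95 points (Newcombe interval -16.1 to -1.68) for water peaks and -10.2 points (-17.0 to -3.14) for DSS peaks. The number of DSS tags moved with this: the medians were 51 tags against 144. Among regions with 50 to 99 DSS tags, 146 of low water acetylation and 99 others, the differences were -3.93 points (-16.4 to 8.68) and -7.82 points (-20.1 to 4.51), and these intervals held 0. Regions that lie close together can share a peak, so the intervals are too narrow to that extent.

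**Figure D4:**
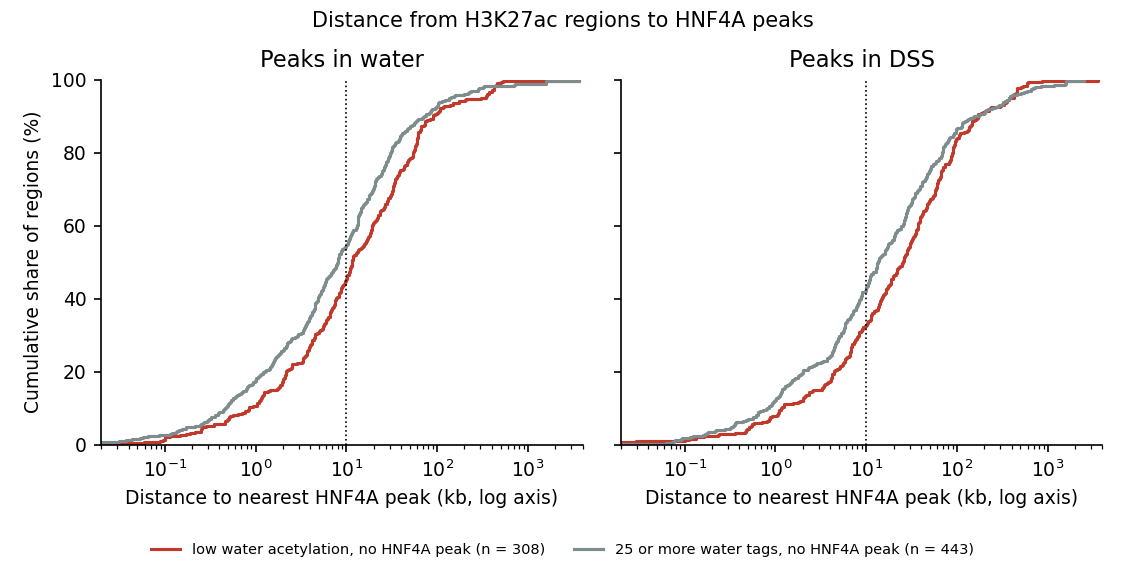
Cumulative share of regions (vertical, percent) within a given distance of the nearest HNF4A peak (horizontal, kb, log axis), for peaks in water (left) and in DSS (right). Regions of low water acetylation (red, 308) run below those with 25 or more water tags (grey, 443) at the dotted 10 kb line, at 45.5% against 54.4% in water and 32.5% against 42.7% in DSS.

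Direct overlap with HNF4A was also less frequent at low water acetylation over all autosomal rows, but not in every band of DSS tags. Before the overlapping regions were set aside, 35 of 343 autosomal regions under the limit (10.2%, interval 7.43 to 13.9) overlapped a peak of either list, against 192 of 635 regions with 25 or more water tags (30.2%, interval 26.8 to 33.9). The difference was -20.0 points (-24.6 to -15.0). Within bands of DSS tags, 1 of 4 intervals excluded 0. Under 50 DSS tags the shares were 7.5% of 160 regions and 0% of 9, a difference of 7.5 points in the other direction (-22.6 to 12.7). At 50 to 74 DSS tags the shares were 9.32% of 118 and 23.5% of 34 regions, a difference of -14.2 points (-31.2 to -1.30). At 75 to 99 tags they were 18.8% of 48 and 17.0% of 88, a difference of 1.70 points (-10.9 to 16.4). At 100 tags or more they were 17.6% of 17 and 33.5% of 504, a difference of -15.9 points (-28.1 to 7.83).

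Peaks near the regions were of ordinary strength. The 129 distinct water peaks that were nearest to a region and within 10 kb had a median rank percentile of 53.1 (quartiles 26.4 and 78.6), where 100 is the strongest of the list. For the 90 DSS peaks it was 54.6 (34.8 and 79.7). Of all 207 water peaks within 10 kb of a region, 115 (55.6%, interval 48.7 to 62.2) overlapped a DSS peak, close to the 53.0% of all autosomal water peaks. Of 118 DSS peaks, 104 (88.1%, interval 81.1 to 92.8) overlapped a water peak, against 82.5% of all autosomal DSS peaks. Neither share differed from the autosomal one beyond its interval.

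The regions were mostly solitary among the listed ones. Another region of the set lay within 10 kb of 37 (12%, interval 8.84 to 16.1), and any other region of the DSS-enriched list within 10 kb of 58 (18.8%, interval 14.9 to 23.6). Within the set, linked at gaps of up to 50 kb after overlapping rows were merged, 266 of 300 merged regions stood alone. Another 30 formed pairs and 4 formed a single larger group. Any other region of the DSS-enriched list lay within 50 kb of 89 of the 308 (28.9%). A listed region with 25 or more water tags lay within 2 kb of 22 (7.14%) and within 10 kb of 34 of the 308.

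The larger group spanned 21.7 kb of chromosome 6 (82698206 to 82719871). It held 5 rows of the set, of which 2 overlap. From left to right they held 106, 97, 71, 33 and 48 tags in DSS and 17, 19, 17, 5 and 14 in water. The 4 that do not overlap summed to 258 tags against 53, a ratio of 4.78 (3.55 to 6.55). All 5 were higher in DSS, as was each of the 308 regions, a direction that the choice of regions largely fixed. A region with 107 tags in DSS against 33 in water (82714011 to 82714541) lay among them. The span held 1 water HNF4A peak and no DSS peak. Just outside it, a water peak lay 503 bp and a DSS peak 548 bp from its first row. A pair of the set lay farther along the same chromosome (82842486 to 82853651), with 123 tags in DSS against 18 in water.

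The 15 pairs had summed ratios between 3.27 and 12.9. The highest was on chromosome 12 (112668076 to 112674911), where one region held 63 tags in DSS against 8 in water and the other 42 and 0. A listed region with 101 and 36 tags lay between them. The pair with most DSS tags, on chromosome 17 (37011541 to 37012611), summed to 210 tags in DSS against 28 in water, a ratio of 7.37 (4.95 to 11.4). A pair on chromosome 11 (117850661 to 117854956) held 70 and 66 tags in DSS against 13 and 11 in water, and another pair lay nearby (117743081 to 117774701), with 44 and 43 tags against 6 and 4. In each of these pairs both partners were higher in DSS, which the choice largely fixed, since all 308 regions were.

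Compared with the 443 regions of higher water acetylation, the 308 had another DSS-enriched region within 10 kb less often, at 18.8% against 26.2%, a difference of -7.35 points (-13.2 to -1.23). Overlapping rows and tag level moved this value. With 1 row kept per overlapping set the difference was -4.16 points (-9.80 to 1.73), and among regions with 50 to 99 DSS tags it was 5.07 points in the other direction (-5.24 to 14.5).

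Regions of the authors' water-enriched list were rare nearby. That list holds 1000 rows, so regions outside it that may have lost H3K27ac were not counted. A region of the water-enriched list lay within 10 kb of 7 of the 308 (2.27%, interval 1.11 to 4.62), against 6.09% of the 443, a difference of -3.82 points (-6.70 to -0.82). It kept its direction with 1 row per overlapping set, at -3.48 points (-6.42 to -0.43), and among regions with 50 to 99 DSS tags, at -7.04 points (-14.5 to -1.34). Of the 7, 3 lay within 2 kb and are named here after their values were seen. They were on chromosome 6 (50408586 to 50409146), chromosome 11 (115318511 to 115319156) and chromosome 19 (57692341 to 57692821). Their nucleosome tags were 74, 37 and 47 in DSS and 15, 12 and 23 in water. Of the 7 regions, 6 also had HNF4A peaks of both lists within 2 kb, which is 85.7% with a wide interval of 48.7 to 97.4, against 10.7% of all 308. The exception, on chromosome 1 (166379596 to 166380131), lay 10.8 kb from the nearest water peak and 30.9 kb from the nearest DSS peak. The share of 85.7% has no counterpart here for those of the 443 that lay near a water-enriched region. It is therefore not shown to be particular to the set.

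**Figure D5:**
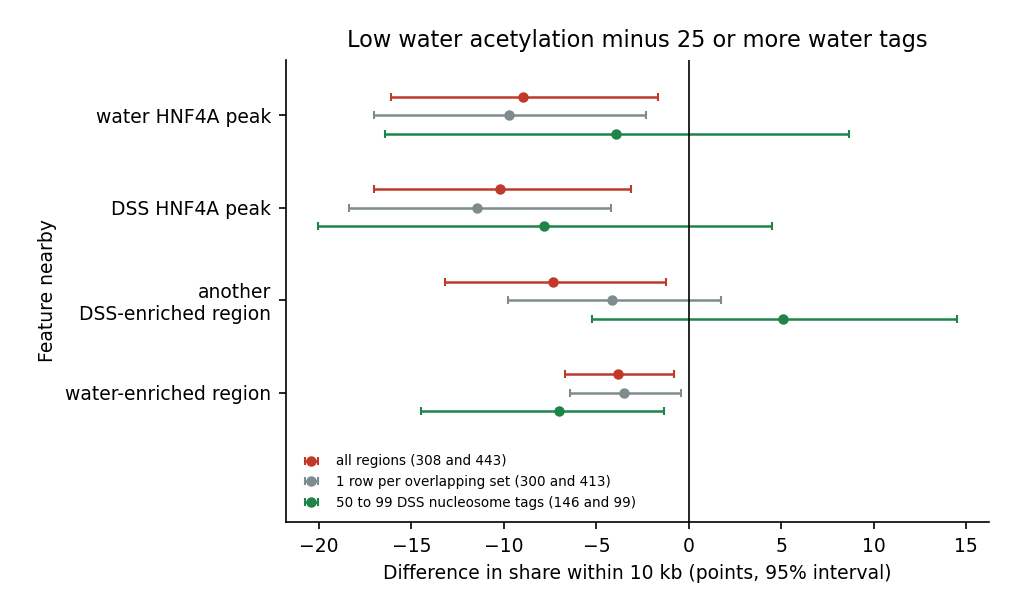
Difference in the share of regions with a given feature within 10 kb (horizontal, percentage points), regions of low water acetylation minus regions with 25 or more water tags, neither overlapping HNF4A; points are differences and bars 95% Newcombe intervals. The interval for water-enriched regions lies below 0 in all 3 comparisons, while that for another DSS-enriched region holds 0 in 2 of them.

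No difference in distance from the authors' reference points was resolved. By its name the list holds regions 2 kb away, and the shortest distance in it was 2.006 kb, so nearer regions were left out beforehand. The median distance of the 308 was 21.7 kb (quartiles 8.61 and 46.1), against 21.1 kb for regions with more water tags and 22.1 kb for HNF4A-bound ones. Within 5 kb of a reference point lay 14.6% of the regions and 15.35% of the 443, a difference of -0.74 points (-5.8 to 4.6). Over 100 kb away lay 31 regions, the farthest on chromosome 12 (98506056 to 98506591) at 991 kb, with 53 tags in DSS against 6 in water.

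All 19 autosomes held some of the regions, from 6 on chromosome 18 to 25 on chromosome 10. As a share of the listed autosomal regions they ranged from 20.7% on chromosome 18 (interval 9.85 to 38.4) to 39.1% on chromosome 10 (28.1 to 51.3), and these intervals overlap.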

How the data were processed

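The members and comparisons were chosen with earlier results of these data known. Software named in the submitters' processing notes is CASAVA 1.8.2 and MACS2; what each did is not given in those sources. Coordinates are as deposited, in mouse build mm9 per the same notes. Per the file headers, the authors deposited raw tag counts on nucleosomes and linker in reads marked MAPQ20, and a score; columns headed WT and DSS were read as the water and DSS libraries. An "r2" in the DSS column name is unexplained. The reading of "nuc", "lin" and of "id" as a distance to an unnamed reference point rests on the values. The deposited score equals the square root of nucleosome minus that of linker tags over the square root of the library total, DSS minus water (largest error 5.14e-10), which gave the totals. HNF4A lists hold 600 bp peaks with a deposited score of unstated kind, used for ranks; their depth is unknown.

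Counts were scaled by library totals, and log2 ratios used a pseudocount of 0.5. Intervals were exact conditional (Clopper-Pearson) for ratios, Wilson for shares and Newcombe for differences, all at 95%. Distances run from edge to edge. Functions were tested on simulated data with Python 3.11.15 and scipy 1.17.1. Regions named are the 10 of highest score, groups of 3 or more, 3 on each side of the limit, 3 with the most water-sided totals and up to 5 with fewest water tags; others are marked in the text or belong to a pair or to an extreme of a range. The gene tables at hand are of another build, so genes and sequences were not used here.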

Additional observations from a re-analysis of the deposited data

How the results depend on the processing

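Of 51 alternatives for 13 results, 34 left the result the same. For counts this meant within a factor of 1.5, and for medians and shares within the interval of the main value. For differences it meant the same sign and an interval that again excluded 0. The number of regions stayed between 250 and 355. The median log2 nucleosome ratio was 1.91 with a pseudocount of 5, 2.16 with a limit of 30 water tags and 1.94 with linker tags added, and the linker ratio was -0.29 with a pseudocount of 5. The share near a water HNF4A peak was 17.5% within 2 kb, 78.6% within 50 kb and 33.4% at equal list lengths, and near a DSS peak 12.01% and 66.9% at those distances. The share near another region of the set was 8.77% within 2 kb and 7.33% with rows merged; that near a water-enriched region was 0.974% within 2 kb and 8.44% within 50 kb. Wider distances and fewer rows shift shares by construction. Chosen after seeing the data, the limit to 50 to 99 DSS tags gave differences of -3.93 points for water peaks, -7.82 for DSS peaks and 5.07 for DSS-enriched regions, where the direction turned; 1 row per overlapping set gave -4.16 for the last. The cause was not tested. The motif search was not run, for lack of a genome of this build in use here. No paired analysis was possible because each group has 1 library. Counts under 25 tags in water limit each ratio.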

Other observations

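Region width moved with linker counts. Among the 101 regions of low water acetylation under 500 bp wide, 36 (35.6%, interval 26.99 to 45.4) had no linker tag in either library, against 6 of 103 from 500 bp to under 550 bp (5.83%, interval 2.7 to 12.1) and 6 of 104 that were wider (5.77%, interval 2.67 to 12). The median of nucleosome tags over both libraries was similar in the 3 width classes, at 62, 63 and 61.5 tags. The median log2 ratio of all tags was 2.30 in the narrowest class and 1.8 and 1.76 in the wider ones. For nucleosome tags alone it was 2.42, 2.10 and 2.29, so without linker tags it was also highest in the narrowest class. The region of highest score, on chromosome 9, was 640 bp wide and still had no linker tag in either library.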
